A study of Homo sapiens with 6 samples.

Results

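The serpin genes described here are SERPINE2, SERPINA1, SERPINA3, SERPINB6, SERPINB9, SERPINF1, SERPING1, SERPINH1 and SERPINI1. These 9 genes were taken by name from the 60504 genes of the deposited count table. The list was chosen with earlier results of these data known. RNA came from SK-MEL-28, an established human melanoma cell line, in 3 libraries labelled EV, from control cells that received an empty vector plasmid, and 3 libraries labelled HDAC8, from cells that received a plasmid for histone deacetylase 8. Per the study's methods, both plasmids were introduced by lipofection and both kinds of cells were kept in hygromycin, and the comparison asked how raised HDAC8 reshapes transcription in melanoma. Nothing in the sources used here says that the replicates came from separate transfections, so the p-values measure the spread between these libraries, which may be technical.

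Library totals lay between 20850018 and 29822917 counts, and a count of 3, used here as the detection floor, corresponded to 0.102 to 0.148 CPM, the count scaled to library size with TMM factors. This floor covers counting error only. The HDAC8 gene itself did not separate the groups. Its 3 EV-labelled libraries held 357, 337 and 289 counts and its 3 HDAC8-labelled libraries held 417, 308 and 312, a log2 fold change of -0.024 ± 0.13 (SE) with an adjusted p of 0.924 by edgeR's quasi-likelihood test. Whether transcripts of the plasmid were counted under this gene is not given in the sources used here, so every direction below rests on the labels alone. All 8 melanoma markers examined were above the floor in all 6 libraries, with a summed level of 6470 to 6859 CPM in the EV-labelled and 7492 to 8016 CPM in the HDAC8-labelled libraries.

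Serpins share one fold with an exposed loop that a protease cleaves as bait. Inhibitory serpins then change shape and trap the protease in a covalent complex that is cleared by receptors of the LDL receptor family. Some members are secreted and restrain coagulation, fibrinolysis, complement or leukocyte proteases, others stay inside cells, and a few have lost inhibition altogether and act as a chaperone or a growth factor. Serpins that block plasminogen activation are known from brain metastasis, where plasmin produced by brain cells harms incoming tumour cells.

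Of the 9 genes, 8 had enough counts to be tested and SERPINB9 did not. SERPINA1, SERPINA3 and SERPINF1 were lower in the HDAC8-labelled libraries and SERPING1 and SERPINI1 were higher. Each had an adjusted p under 0.05 and a log2 change of 0.58 or more in size by edgeR's quasi-likelihood test. The study's methods give these thresholds for DESeq2, while its figure legend gives an unadjusted p under 0.05. SERPINE2 and SERPINH1 were also lower at the same adjusted p, with changes smaller than the fold threshold. SERPINB6 did not pass. These 5 of 8 compare with 7.52% of the 16195 genes tested, of which 3.45% were lower and 4.07% were higher past both thresholds. The 9 genes were listed with earlier results of these data known, so the shares in this paragraph are a description only. At the adjusted p alone, 5 of the 8 were lower and 2 higher, against 11.7% and 11.1% of all genes tested, or 22.7% in either direction. The libraries of the 2 groups did not overlap for 7 of the 8, 5 lower and 2 higher, where 19.3% of all genes tested were lower without overlap and 18.7% higher, 38.0% in all. The median log2 fold change was -0.43 over the 8 genes and 0.0091 over all genes tested. SERPING1 and SERPINI1 passed the filter on low counts only through the HDAC8-labelled group, where they are high, so their count among the genes tested carries no weight. In bulk RNA, fewer cells that express a gene and less of its RNA per cell cannot be told apart.

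**Figure D1:**
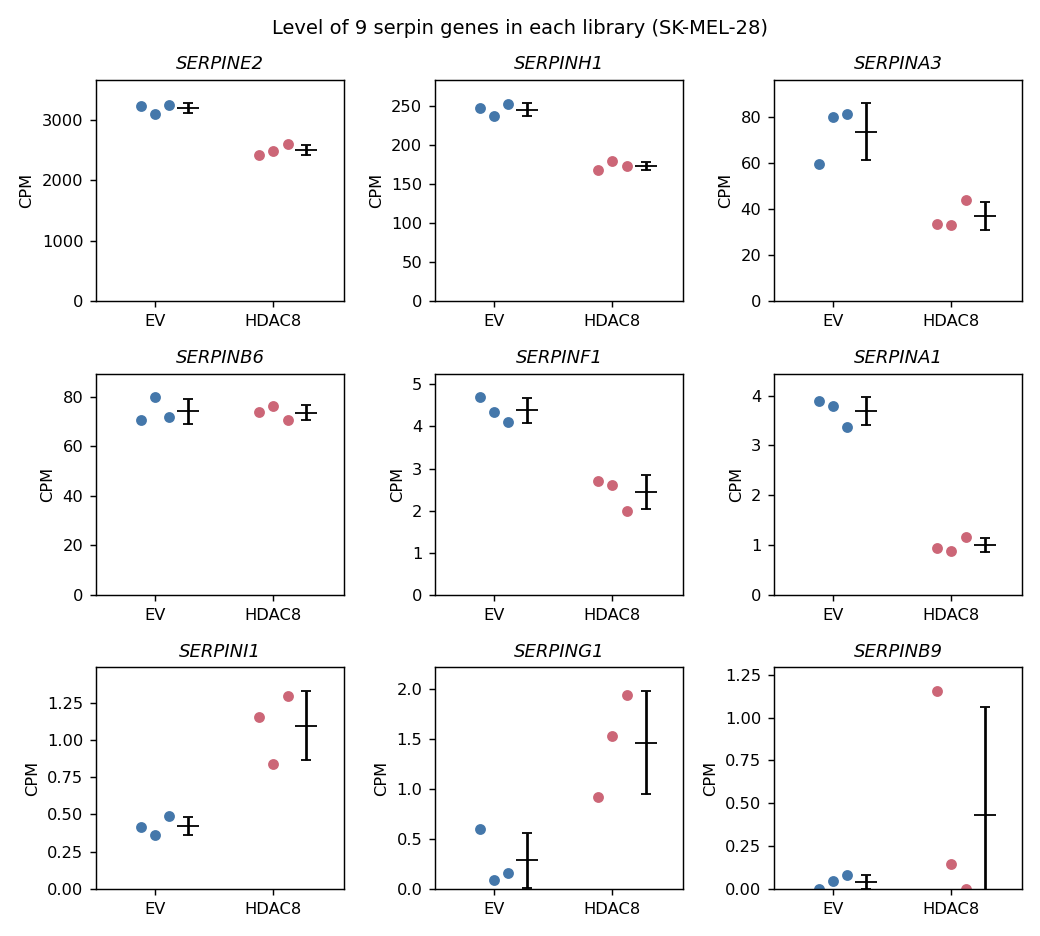
Level of each of the 9 serpin genes in CPM (vertical axes, each starting at 0 and with its own scale) in the 3 EV-labelled and 3 HDAC8-labelled libraries; points are libraries, and the bar beside them is the mean with its SD, cut at 0 for SERPINB9. SERPINE2 sits between 3096 and 3239 CPM in the EV-labelled libraries and between 2420.1 and 2590.3 CPM in the HDAC8-labelled ones, while SERPINB9 rises above the rest in a single library.

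Levels of different genes were compared as CPM per kb of merged exon, on GENCODE 44 exons. Merged exons cover all annotated transcripts of a gene, not only those expressed here, so the order depends on these lengths. SERPINA3 and SERPINB6, for example, had nearly equal EV-labelled means of 73.5 and 74.0 CPM, over 5000 and 13201 exon bases. In the EV-labelled libraries the order was SERPINE2 at 356 ± 8.76 CPM per kb (SD, n = 3), SERPINH1 at 39.1 ± 1.25, SERPINA3 at 14.7 ± 2.46, SERPINB6 at 5.61 ± 0.376, SERPINF1 at 1.46 ± 0.0976, SERPINA1 at 0.753 ± 0.0564, SERPINI1 at 0.199 ± 0.0299, SERPING1 at 0.0395 ± 0.0384 and SERPINB9 at 0.0102 ± 0.00984 CPM per kb. Every neighbouring pair in this order was separated in all libraries except SERPING1 and SERPINB9, whose libraries overlapped. In the HDAC8-labelled libraries the first 5 genes kept this order, from 279 ± 9.71 CPM per kb for SERPINE2 to 0.815 ± 0.133 for SERPINF1. SERPINI1, at 0.515 ± 0.109 CPM per kb, then stood above SERPINA1, at 0.204 ± 0.0295, so this pair had changed places on this scale. In CPM the HDAC8-labelled libraries of the pair overlapped, at 0.839 to 1.29 for SERPINI1 and 0.888 to 1.16 for SERPINA1. Their separation per kb thus rests on exon lengths of 2128 and 4902 bases. SERPINA1 overlapped with SERPING1 at 0.202 ± 0.0712 CPM per kb, and SERPING1 overlapped with SERPINB9 at 0.105 ± 0.152.

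**Figure D2:**
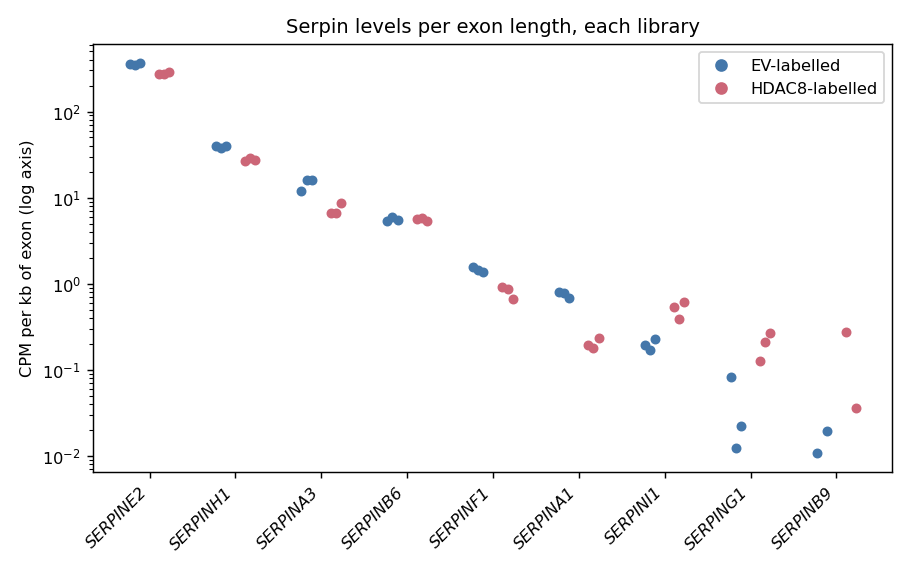
Level of the 9 serpin genes in CPM per kb of exon (vertical axis, logarithmic) in each EV-labelled (blue) and HDAC8-labelled (red) library, genes ordered by their mean over all libraries; the 2 libraries in which SERPINB9 had no count are not drawn. SERPINI1 lies below SERPINA1 in the EV-labelled libraries, at 0.199 against 0.753 CPM per kb, and above it in the HDAC8-labelled ones, at 0.515 against 0.204.

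SERPINE2 (ENSG00000135919), or protease nexin-1, is a secreted inhibitor of thrombin, urokinase and tissue plasminogen activator that binds to heparan sulphate at the cell surface. It lies on the minus strand of chromosome 2 (GRCh38, chr2:223975045-224039318). Its level was 3223, 3096 and 3239 CPM in EV-labelled replicates 1 to 3 and 2420.1, 2474 and 2590.3 CPM in HDAC8-labelled replicates 1 to 3. All 3 HDAC8-labelled libraries were below all 3 EV-labelled ones, and no library stood apart from its group. The mean went from 3186 ± 78.4 to 2495 ± 87.0 CPM (SD, n = 3), a log2 fold change of -0.35 ± 0.038 (SE) with an adjusted p of 4.3e-05, or 0.783 of the EV-labelled level. SERPINE2 ranked 17th of the 60504 genes by mean CPM. Its mean level equalled 0.319% of the TMM-scaled library size in the EV-labelled and 0.249% in the HDAC8-labelled libraries. Its fall passed the adjusted p in all 13 alternatives tried, with log2 fold changes between -0.39 and -0.34.

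The RefSeq windows around the starts of SERPINE2 (GRCh38.p14, minus strand, 250 bases before to 50 after the start) are shown because this gene is by far the most abundant of the 9 and its 2 windows differ in sequence content. The first lies at the outer start and the second at a start inside the gene, and the capitals mark CATGTG or CACGTG on either strand, the E-box letters that MITF and related factors are known to bind.

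SERPINE2 outer start, chr2:224038591-224038890: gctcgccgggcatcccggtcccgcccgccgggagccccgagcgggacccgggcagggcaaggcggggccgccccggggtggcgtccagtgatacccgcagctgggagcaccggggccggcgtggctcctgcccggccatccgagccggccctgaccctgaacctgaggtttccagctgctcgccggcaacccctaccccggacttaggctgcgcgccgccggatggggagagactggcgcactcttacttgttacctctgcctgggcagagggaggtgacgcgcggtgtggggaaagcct

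SERPINE2 inner start, chr2:224031429-224031728: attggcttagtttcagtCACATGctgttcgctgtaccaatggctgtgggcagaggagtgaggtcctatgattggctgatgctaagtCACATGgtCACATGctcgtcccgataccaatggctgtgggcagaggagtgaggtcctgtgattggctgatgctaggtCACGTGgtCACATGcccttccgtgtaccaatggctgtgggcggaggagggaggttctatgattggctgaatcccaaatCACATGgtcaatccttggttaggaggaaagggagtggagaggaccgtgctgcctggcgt

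The outer window held neither E-box. The inner window held CATGTG 5 times, read as its complement, with first bases at positions -233, -164, -156, -79 and -9 from the start, and CACGTG once at -87. CATGTG occurred in 11.1% of all 35116 promoter windows of the table and CACGTG in 7.26%, and 6 windows of the table held CATGTG 5 or more times. These are letter matches in a window, counted after results of these data were known, and not measured sites. Per-library levels were not resolved by start site, so no value here belongs to one window.

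SERPINA1 (ENSG00000197249), alpha-1-antitrypsin, is the main plasma inhibitor of neutrophil elastase and is made chiefly by hepatocytes. It lies on the minus strand of chromosome 14 (chr14:94376747-94390693). SERPINA1 had 84, 84 and 83 counts in EV-labelled replicates 1 to 3 and 28, 18 and 27 counts in HDAC8-labelled replicates 1 to 3. The 3 EV-labelled libraries were nearly equal, and each was well above every HDAC8-labelled library. In CPM these were 3.90, 3.79 and 3.38 against 0.951, 0.888 and 1.16, so the mean went from 3.69 ± 0.276 to 1.00 ± 0.145 CPM (SD, n = 3). The log2 fold change of -1.88 ± 0.28 (SE), with an adjusted p of 0.00046, was the lowest of the 8 tested genes, and the EV-labelled level was 3.69 times the HDAC8-labelled one. None of 5 hepatocyte markers reached the floor in all 6 libraries, and their summed level was at most 0.232 CPM. The fall of SERPINA1 passed in all 13 alternatives, at -2.0 to -1.81.

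SERPINA3 (ENSG00000196136), alpha-1-antichymotrypsin, is an acute phase protein that inhibits cathepsin G and chymotrypsin-like proteases. It lies in the same gene cluster on chromosome 14, on the plus strand (chr14:94612384-94624055). SERPINA3 stood at 59.3, 79.9 and 81.2 CPM in EV-labelled replicates 1 to 3 and at 33.4, 33.2 and 43.8 CPM in HDAC8-labelled replicates 1 to 3. The groups did not overlap, EV-labelled replicate 1 was the lowest of its group, and HDAC8-labelled replicate 3 was the highest of its own. The mean went from 73.5 ± 12.3 to 36.8 ± 6.08 CPM (SD, n = 3), a log2 fold change of -0.999 ± 0.13 (SE) with an adjusted p of 0.00017. SERPINA3 was the only one of the 9 genes whose estimated counts were not whole, in all 6 libraries, as happens where the counting divides reads between genes.

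The gene that shares its exons is ENSG00000273259 (AL049839.2), a transcript that GENCODE tags as readthrough and that starts within the SERPINA5 locus (chr14:94592058-94624646, plus strand). The readthrough gene was counted at 211, 181 and 179 CPM in EV-labelled replicates 1 to 3 and at 98.3, 94.4 and 94.4 CPM in HDAC8-labelled replicates 1 to 3. In EV-labelled replicate 1, where SERPINA3 was low, the readthrough gene was high. The sum of both was 271, 261 and 260.4 CPM in the EV-labelled libraries and 132, 128 and 138 CPM in the HDAC8-labelled libraries, with means of 264 ± 5.84 and 132 ± 5.38 CPM (SD, n = 3). The spread of the sum within the groups was smaller than that of SERPINA3 alone although its level was higher. SERPINA3 received 21.9% to 31.7% of the sum, on average 27.9% ± 5.21 in the EV-labelled and 27.7% ± 3.49 in the HDAC8-labelled libraries. The log2 fold change was -0.99 ± 0.066 (SE) for the readthrough gene, with an adjusted p of 6.0e-07, and -0.99 ± 0.048 for the sum, with an adjusted p of 4.0e-08. The size of the fall was thus alike on all 3 scales, while the level of SERPINA3 itself is uncertain. The sum was added after the data were seen.

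**Figure D3:**
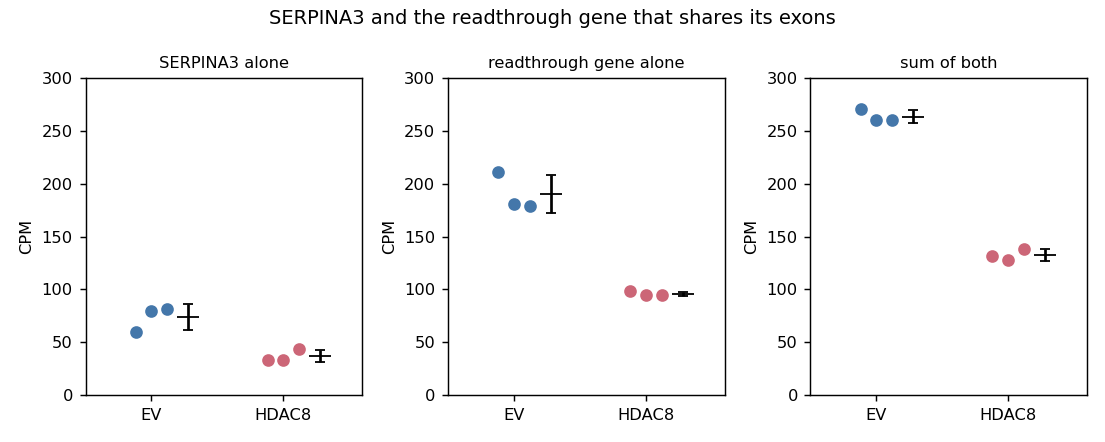
Level in CPM (vertical axes from 0, one scale) of SERPINA3, of the readthrough gene that shares its exons and of their sum in the 3 EV-labelled and 3 HDAC8-labelled libraries; points are libraries and the bar is the mean with its SD. The sum lies at 260.4 to 271 CPM in the EV-labelled and 128 to 138 CPM in the HDAC8-labelled libraries, with less spread relative to its level than SERPINA3 alone.

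SERPINA1 and SERPINA3 lie within 500 kb of each other. Of 11 tested genes within 500 kb of SERPINA1, 2 were lower past both thresholds and 0 were higher, and these 2 were SERPINA3 and the readthrough gene. SERPINA5, which lies between them and encodes protein C inhibitor, stood at 8.41 ± 0.539 CPM in the EV-labelled and 9.85 ± 0.451 CPM in the HDAC8-labelled libraries (SD, n = 3). Its groups did not overlap, but its log2 fold change of 0.23 ± 0.12 (SE) had an adjusted p of 0.232. SERPINA10, a liver inhibitor of coagulation factors in the same cluster, stood at 0.539 ± 0.0731 and 0.479 ± 0.249 CPM, with an adjusted p of 0.845. A RefSeq start window of each of SERPINA1 and SERPINA3, which fell, is shown for comparison, on the strand of each gene. SERPINA1 has a further start window inside the gene (chr14:94388553-94388852), which is not shown. None of these windows held any of the motifs searched.

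SERPINA1, chr14:94390586-94390885, minus strand: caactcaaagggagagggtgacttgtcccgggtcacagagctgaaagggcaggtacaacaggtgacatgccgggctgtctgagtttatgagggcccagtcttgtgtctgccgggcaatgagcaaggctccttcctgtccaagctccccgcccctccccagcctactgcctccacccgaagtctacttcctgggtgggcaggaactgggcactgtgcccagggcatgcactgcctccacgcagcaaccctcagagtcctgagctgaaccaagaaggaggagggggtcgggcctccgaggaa

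SERPINA3, chr14:94612141-94612440, plus strand: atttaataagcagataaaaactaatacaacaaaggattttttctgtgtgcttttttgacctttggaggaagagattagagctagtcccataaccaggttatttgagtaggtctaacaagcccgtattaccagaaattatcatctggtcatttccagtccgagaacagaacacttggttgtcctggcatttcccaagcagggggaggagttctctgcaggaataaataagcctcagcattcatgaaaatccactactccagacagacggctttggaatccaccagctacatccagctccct

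SERPING1 (ENSG00000149131), C1 inhibitor, blocks the complement proteases C1r and C1s and also plasma kallikrein. It lies on the plus strand of chromosome 11 (chr11:57597387-57619171). SERPING1 had 13, 2 and 4 counts in EV-labelled replicates 1 to 3 and 27, 31 and 45 counts in HDAC8-labelled replicates 1 to 3. EV-labelled replicate 2 was below the floor, EV-labelled replicate 1 was closest to the HDAC8-labelled libraries, and the groups did not overlap. The mean went from 0.286 ± 0.278 to 1.46 ± 0.515 CPM (SD, n = 3), a log2 fold change of 2.35 ± 0.62 (SE) with an adjusted p of 0.0169. The call rested on few counts, and over 12 alternatives the log2 fold change ran from 1.93 to 3.46. It was largest without EV-labelled replicate 1 (3.46, adjusted p 0.0069). The call was lost without EV-labelled replicate 2 (1.93, adjusted p 0.0705), without EV-labelled replicate 3 (2.06, adjusted p 0.0909), without HDAC8-labelled replicate 2 (2.30, adjusted p 0.0571) and without HDAC8-labelled replicate 3 (2.08, adjusted p 0.0566).

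SERPINI1 (ENSG00000163536), neuroserpin, is an inhibitor of tissue plasminogen activator that neurons secrete. It lies on the plus strand of chromosome 3 (chr3:167735243-167825569). SERPINI1 had 9, 8 and 12 counts in EV-labelled replicates 1 to 3 and 34, 17 and 30 counts in HDAC8-labelled replicates 1 to 3. All libraries were above the floor and the groups did not overlap, with HDAC8-labelled replicate 2 the lowest of its group. The mean went from 0.422 ± 0.0636 to 1.10 ± 0.233 CPM (SD, n = 3), a log2 fold change of 1.36 ± 0.43 (SE) with an adjusted p of 0.0402. The adjusted p was 0.0674 with DESeq2, 0.108 with no filter on low counts and 0.0691 to 0.132 when any 1 of the 6 libraries was left out, so the call depended on these choices while the direction did not. An antisense gene, ENSG00000287319, overlaps SERPINI1 and is not in the table, and the strand setting of the counting is not given in the sources used here, so reads of the pair cannot be told apart.

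SERPINB6 and SERPINB9 belong to the clade of serpins that stay inside cells, and they lie close together on the minus strand of chromosome 6. SERPINB6 (ENSG00000124570, chr6:2948159-2972165) inhibits cathepsin G and is expressed in many tissues. Its level was 70.5, 79.7 and 71.9 CPM in EV-labelled replicates 1 to 3 and 73.9, 76.2 and 70.4 CPM in HDAC8-labelled replicates 1 to 3. The groups overlapped, with means of 74.0 ± 4.96 and 73.5 ± 2.90 CPM (SD, n = 3). The log2 fold change was -0.011 ± 0.064 (SE), with an adjusted p of 0.931 and a 95% confidence interval from -0.15 to 0.13. These libraries do not exclude a change within this interval.

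SERPINB9 (ENSG00000170542, chr6:2887270-2903309) inhibits granzyme B, the protease by which cytotoxic lymphocytes kill their targets. SERPINB9 had 0, 1 and 2 counts in EV-labelled replicates 1 to 3 and 34, 3 and 0 counts in HDAC8-labelled replicates 1 to 3. It was below the floor of 3 counts in 4 of the 6 libraries, including all 3 EV-labelled ones, and reached 1.15 CPM in HDAC8-labelled replicate 1. The gene did not pass the filter and was not tested in the reported fit. With no filter on low counts its fitted log2 fold change, which depends on the prior count and is no bound, was 3.21 with an adjusted p of 0.0243, and without HDAC8-labelled replicate 1, an alternative added after the data were seen, 0.66 with an adjusted p of 0.903, so 1 library decided this value. Of 6 leukocyte markers, 1 (LYZ) was above the floor in all libraries and CD3E was at 0, with a summed level of 1.45 to 2.74 CPM in the EV-labelled and 0.948 to 2.89 CPM in the HDAC8-labelled libraries.

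SERPINF1 and SERPINH1 do not inhibit proteases. SERPINF1 (ENSG00000132386), pigment epithelium-derived factor or PEDF, is a secreted protein known for restraining the growth of blood vessels and is located on the plus strand of chromosome 17 (chr17:1762029-1777565). SERPINF1 had 101, 96 and 101 counts in EV-labelled replicates 1 to 3 and 80, 53 and 46 counts in HDAC8-labelled replicates 1 to 3. In CPM these were 4.69, 4.34 and 4.11 against 2.72, 2.62 and 1.98, without overlap. The mean went from 4.38 ± 0.292 to 2.44 ± 0.397 CPM (SD, n = 3), a log2 fold change of -0.84 ± 0.23 (SE) with an adjusted p of 0.0201. The fall passed in 12 of 13 alternatives and was lost without EV-labelled replicate 1 (-0.79, adjusted p 0.0787).

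SERPINH1 (ENSG00000149257), or HSP47, is a chaperone of the endoplasmic reticulum that binds folded procollagen, and its gene is known to be induced by heat shock. It lies on the plus strand of chromosome 11 (chr11:75562056-75572783). SERPINH1 stood at 247, 237 and 253 CPM in EV-labelled replicates 1 to 3 and at 169, 179 and 173 CPM in HDAC8-labelled replicates 1 to 3. Both groups were tight, and the lowest EV-labelled library was well above the highest HDAC8-labelled one. The mean went from 246 ± 7.85 to 174 ± 5.33 CPM (SD, n = 3), a log2 fold change of -0.50 ± 0.047 (SE) with an adjusted p of 1.2e-05. The fall passed in all 13 alternatives, at -0.53 to -0.48. The RefSeq window at its first start is shown with the heat shock element in capitals, searched on either strand as GAA, TTC and GAA in turn with 2 free bases between them, present in 0.49% of all windows.

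SERPINH1, chr11:75562003-75562302, plus strand: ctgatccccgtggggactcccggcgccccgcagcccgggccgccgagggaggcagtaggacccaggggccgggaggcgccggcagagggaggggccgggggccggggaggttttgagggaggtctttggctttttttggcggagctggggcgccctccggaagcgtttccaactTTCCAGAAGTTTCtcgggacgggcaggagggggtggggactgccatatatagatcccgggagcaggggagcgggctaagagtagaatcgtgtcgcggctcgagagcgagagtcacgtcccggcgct

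The match lay at position -76 and was the only one of its kind among the 13 windows of the 7 genes that matched the promoter table. SERPINF1 and SERPING1 were not matched. SERPINB6 held CATGTG 2 times in one of its windows, no window held the AP-1 letters TGANTCA, which 7.71% of all windows held, and 10 of the 13 windows held none of the 4 motifs. HSF1, the factor of the heat shock response, stood at 117 ± 4.17 and 109 ± 5.26 CPM, with a log2 fold change of -0.097 ± 0.055 (SE) and an adjusted p of 0.243. HSF1 was named after its values were seen.

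**Figure D4:**
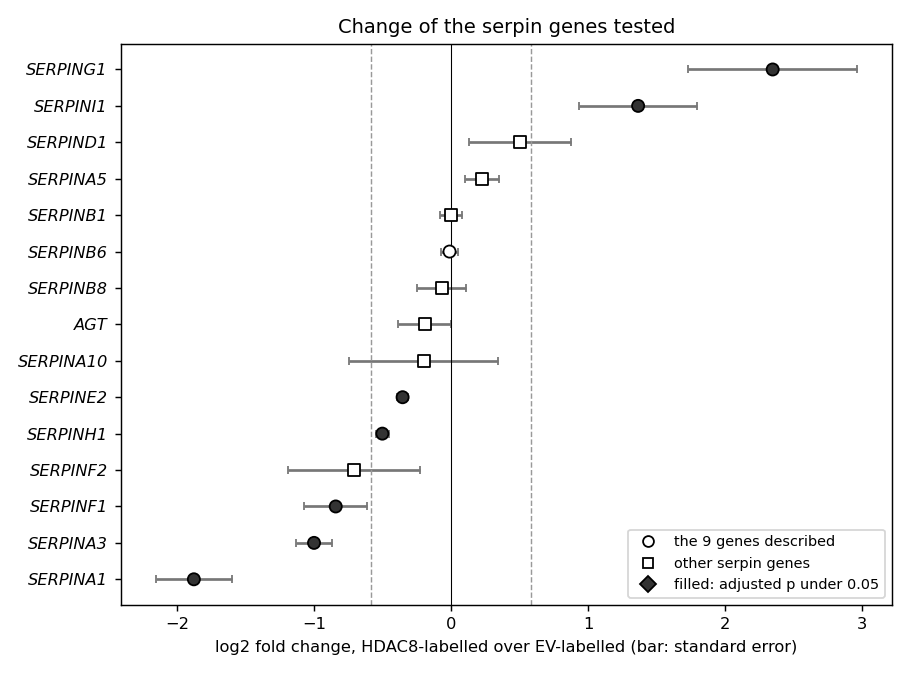
Log2 fold change of the HDAC8-labelled over the EV-labelled libraries (horizontal axis) with its standard error for the 15 serpin genes tested; circles are the genes described, squares the other serpins, filled symbols have an adjusted p under 0.05, and dashed lines mark the fold threshold of 0.58 in each direction. The filled symbols run from -1.88 for SERPINA1 to 2.35 for SERPING1, and no square is filled.

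The rest of the family showed no call. Of 26 other serpin genes examined, 14 had no count in any library, and 19 were not tested, none of them with more than 6.07 counts in a library. Of the 7 tested, 0 passed both thresholds or the adjusted p alone by edgeR's quasi-likelihood test, 0 had an unadjusted p under 0.05, and 0 passed both thresholds by DESeq2. SERPINB1, an intracellular inhibitor of neutrophil proteases, stood at 32.0 ± 2.36 and 32.0 ± 2.32 CPM (SD, n = 3), with an adjusted p of 0.998. AGT, angiotensinogen, a serpin by fold that yields the angiotensin peptides, stood at 7.47 ± 1.63 and 6.56 ± 0.949 CPM, with an adjusted p of 0.539. The log2 fold changes of SERPINB8, SERPIND1 (heparin cofactor II) and SERPINF2 (alpha-2-antiplasmin) were -0.066 ± 0.18, 0.51 ± 0.37 and -0.71 ± 0.48 (SE), with adjusted p of 0.843, 0.383 and 0.339. Their 95% confidence intervals were wide for the last 2, from -0.31 to 1.32 for SERPIND1 and from -1.76 to 0.34 for SERPINF2, both of which were near 1 CPM.

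Of 26 target proteases of serpins, 11 were tested, and 3 were higher and 1 lower past both thresholds, where 4.07% and 3.45% of all genes tested were. The median log2 fold change was 0.14. HPN and F10, named below, passed the filter on low counts only through the group in which they are high, so they add no weight to this count. C1R, the complement protease that SERPING1 inhibits, stood at 6.78, 6.64 and 7.69 CPM in EV-labelled replicates 1 to 3 and at 14.6, 15.2 and 16.9 CPM in HDAC8-labelled replicates 1 to 3. Its log2 fold change was 1.14 ± 0.12 (SE) with an adjusted p of 3.2e-05. C1R and SERPING1 were thus both higher in the HDAC8-labelled libraries, whereas C1S, named after its values were seen and the other protease of that complex, had a log2 fold change of 0.10 ± 0.28 with an adjusted p of 0.851. HPN, the membrane protease hepsin, went from 0.329 ± 0.144 to 1.99 ± 0.315 CPM (SD, n = 3; log2 fold change 2.59, adjusted p 0.0014), and HTRA1, a secreted protease, went from 45.2 ± 1.31 to 68.8 ± 5.58 CPM (0.60, adjusted p 6.8e-05). F10, coagulation factor X, went from 0.987 ± 0.119 to 0.293 ± 0.171 CPM (-1.78, adjusted p 0.0363), a call lost in 6 of 13 alternatives. PLAT, the tissue plasminogen activator that SERPINE2 and SERPINI1 inhibit, fell from 83.6 ± 6.06 to 63.6 ± 1.73 CPM (-0.39 ± 0.064 SE, adjusted p 0.00094), which is below the fold threshold. CTSL, the lysosomal protease cathepsin L, stood at 78.3 ± 2.15 and 86.2 ± 11.9 CPM, with an adjusted p of 0.291.

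Of 9 receptors and helpers that clear serpin-protease complexes, all were tested, and 0 were higher and 1 lower past both thresholds, where 7.52% of all genes tested passed in either direction. At the adjusted p alone 2 were higher and 2 lower, against 11.1% and 11.7% of all genes tested, and the median was 0.029. LRP2, the endocytic receptor megalin, was the gene past both thresholds, from 3.79 ± 0.0861 to 1.79 ± 0.562 CPM (SD, n = 3; log2 fold change -1.09, adjusted p 0.0154), and the call was lost without EV-labelled replicate 3 (adjusted p 0.0503). The most abundant were SORT1, sortilin, which fell from 402 ± 9.34 to 368 ± 7.51 CPM (-0.13, adjusted p 0.0436), and LRP1, the main receptor for such complexes, at 277 ± 12 and 283 ± 23.8 CPM (adjusted p 0.790).

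The collagen genes beside SERPINH1 did not move as one group. Of 14 genes for collagen modification and folding, all were tested and 0 passed both thresholds by edgeR or by DESeq2, while 8 had an unadjusted p under 0.05, 1 was higher and 4 were lower at the adjusted p alone, against 11.1% and 11.7% of all genes tested, and the median was -0.050. P4HB, a subunit of prolyl 4-hydroxylase and the most abundant of them, rose by a log2 fold change of 0.17 ± 0.041 (SE; adjusted p 0.0109), and CRTAP, part of the prolyl 3-hydroxylation complex, stood at 418 ± 23.6 and 454 ± 16.8 CPM (adjusted p 0.121). Of 11 collagen chains, 9 were tested and 3 were higher and 0 lower past both thresholds, against 4.07% and 3.45% of all genes tested, with a median of -0.26. The 3 were the basement membrane chains COL4A1 (0.60 ± 0.14, adjusted p 0.0071) and COL4A2 (0.99 ± 0.11, adjusted p 5.2e-05) and COL6A3 (0.68 ± 0.091, adjusted p 0.00023). The abundant chains COL6A1 and COL6A2 fell, from 164 ± 11.3 to 119 ± 5.85 CPM (-0.46, adjusted p 0.00019) and from 112 ± 5.83 to 76.9 ± 6.67 CPM (-0.54, adjusted p 0.00017), the same direction and nearly the same size as SERPINH1. Fibroblast markers, of which 3 of 5 were above the floor in all libraries and LUM was the most abundant, summed to 41.8 to 44.7 CPM in the EV-labelled and 54.9 to 59.9 CPM in the HDAC8-labelled libraries, and their part in the collagen and SERPINF1 values was not tested.

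In the secretory pathway that serpins pass through, 16 genes of folding and quality control were tested, 0 passed both thresholds by edgeR or by DESeq2, and 7 had an unadjusted p under 0.05. At the adjusted p alone 2 were higher and 4 lower, against 11.1% and 11.7% of all genes tested, and the median was -0.047. CANX, the lectin chaperone calnexin that binds misfolded alpha-1-antitrypsin, rose by a log2 fold change of 0.30 ± 0.044 (SE; adjusted p 0.00040), and its soluble relative CALR stood at 757 ± 24.3 and 719.9 ± 22.1 CPM (adjusted p 0.272). Of 5 genes reported as receptors of PEDF, 4 were tested, 0 passed both thresholds by edgeR or by DESeq2, and 2 passed the adjusted p, both higher, as many as had an unadjusted p under 0.05, where 11.1% of all genes tested were higher at the adjusted p. These were RPSA, the laminin receptor (0.22 ± 0.051, adjusted p 0.0087), and LRP6, a Wnt co-receptor (0.19 ± 0.044, adjusted p 0.0102). Of 11 regulators of the acute phase response that is known to induce SERPINA1, SERPINA3 and SERPING1, 8 were tested, 0 passed both thresholds by edgeR or by DESeq2, 4 had an unadjusted p under 0.05, and 2 were lower at the adjusted p, against 11.7% of all genes tested. These were STAT3, from 182 ± 11 to 154 ± 0.488 CPM (-0.24, adjusted p 0.0058), and IL6ST, the shared receptor subunit gp130, from 171 ± 1.29 to 151 ± 4.30 CPM (-0.18, adjusted p 0.0138).

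The genes whose log2 CPM over the 6 libraries were most like each serpin were ranked by Pearson's r among the 14149 tested genes that averaged 1 CPM or more. With 6 libraries in 2 groups, this likeness is mostly the group difference itself, and 756 genes had an r above 0.95 with SERPINE2. The nearest to SERPINE2 were SCARF2 (r = 0.9993), LIMK1 (0.9988) and TNFSF9 (0.9984). Nearest to SERPINA1 were AC112487.1 (r = 0.9993), BBS5 (0.9986) and RDH10 (0.9978), and to SERPINA3, SPATA33 (0.9952), GRK4 (0.9919) and ABHD3 (0.9906). SERPINF1 was nearest to LMO7 (r = 0.9988) and then ATP11B (0.9968), SERPING1 to DUSP9 (0.9943) and PTPN3 (0.9942), and SERPINI1 to AL929601.1 (0.9985), ITPR1 (0.9976) and INTS6L (0.9957), where 1 gene each of SERPINF1 and SERPING1 is not reported here. None of the 6 serpins shared a nearest gene with another in these lists.

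The tested genes within 500 kb of each serpin were counted beside the 3.45% of all genes tested that were lower and the 4.07% that were higher past both thresholds. No neighbour of any of the 9 serpins was higher past both thresholds. The lower ones were 0 of 7 around SERPINE2, 0 of 16 around SERPING1, 0 of 3 around SERPINI1, 1 of 13 around SERPINB6, 1 of 14 around SERPINB9, 2 of 21 around SERPINF1, 3 of 8 around SERPINH1, 2 of 8 around SERPINA3 and 2 of 11 around SERPINA1. Neighbourhoods of serpins that lie close together share genes, and SERPINA1 and SERPINA3 are each among the neighbours of the other. The lower genes counted around SERPINA1 and SERPINA3 were only the other of the pair and the readthrough gene that shares exons with SERPINA3. Those counts are therefore not independent of the 9 serpins. The median log2 fold change of the neighbours was -0.16 around SERPINF1 and -0.20 around SERPINH1.

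**Figure D5:**
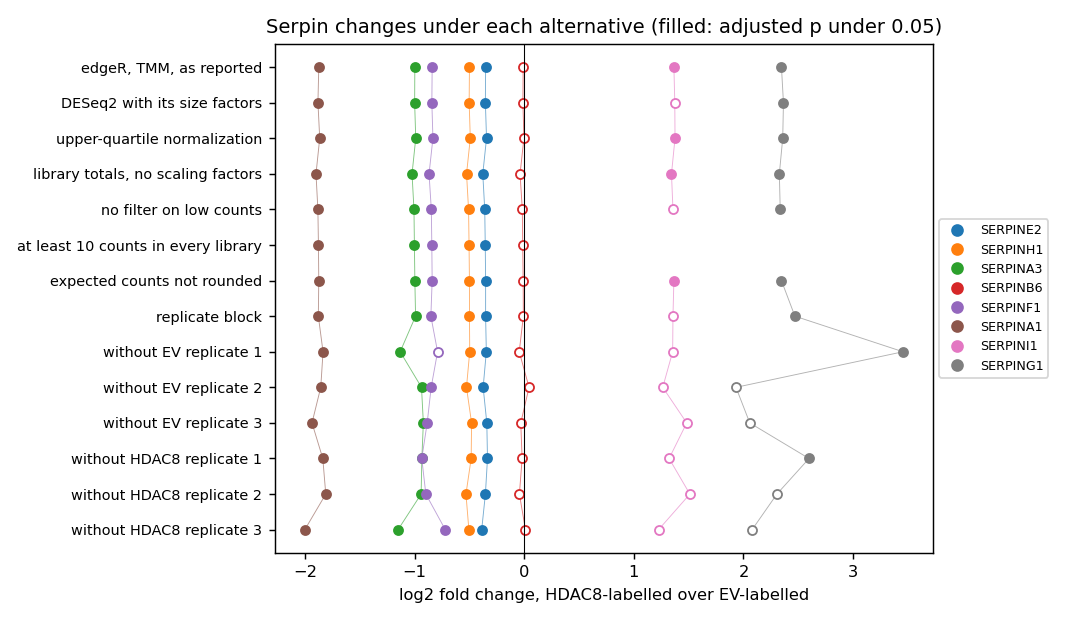
Log2 fold change of the 8 tested serpin genes (horizontal axis, one colour a gene) in the reported fit and in 13 alternatives (vertical axis), filled where the adjusted p was under 0.05; SERPING1 and SERPINI1 have no value with at least 10 counts in every library. SERPINE2, SERPINH1, SERPINA3 and SERPINA1 stay filled throughout, SERPINB6 is unfilled and near 0 in every setting, and SERPINI1 is unfilled in all 6 settings that leave out a library.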

How the data were processed

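RNA of SK-MEL-28 cells was measured in 3 EV-labelled and 3 HDAC8-labelled libraries, grouped by their titles. Per the submitters' processing notes, the authors used Trimmomatic, STAR, RSEM and DESeq2 with GRCh38, and the annotation release is not given in the sources used here. The authors deposited expected counts per Ensembl gene without normalization, and these estimated counts were rounded here. The labels and the study's methods describe different RNA and library kits. A second deposited table holds the authors' own fold changes, p-values and group values of this comparison, and was not used.

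Counts were fitted across all genes with the quasi-likelihood test of edgeR 4.0.16 under R 4.3.3 and limma 3.58.1, after filterByExpr and TMM, with group as the single term (glmQLFit, glmQLFTest), and p-values were adjusted by Benjamini-Hochberg over 16195 genes. Standard errors were derived from the F statistic, as the size of the log2 change over the root of F. A gene was called at an adjusted p under 0.05 and a log2 change of 0.58 or more in size. CPM used TMM-scaled library sizes. The fit was checked on simulated data. Alternatives were DESeq2 1.42.0, other scalings and filters, unrounded counts, a replicate block and leaving out each library.

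All 9 serpins were named, as were each other serpin tested, in each partner list the genes past both thresholds and the 2 of highest mean CPM, and the 3 genes most like each serpin past both thresholds and SERPINE2. The members and lists were chosen with earlier results of these data known. Genes the rule would name that are not reported here were left out. Gene positions were looked up by Ensembl identifier in GENCODE 44 (GRCh38), and start windows in RefSeq (GRCh38.p14).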

Additional observations from a re-analysis of the deposited data

How the results depend on the processing

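The count of serpins higher past both thresholds, 2 in the reported fit, was 1 with DESeq2, 0 with at least 10 counts in every library (which removes SERPING1 and SERPINI1), 1 with a replicate block and 0 to 1 when a library was left out. The count of serpins higher at the adjusted p alone, also 2, took the same values under each of these alternatives. The count lower past both thresholds, 3, was 1 when a log2 fold change of at least 1 was asked for. In the partner lists, the 2 genes lower past both thresholds became 1 under the same stricter filter, 1 under the block and 0 to 3 with a library left out. SERPINB6, never past the adjusted p, ranged from -0.046 to 0.043 when a library was left out and changed sign to 0.043 without EV-labelled replicate 2 and to 0.011 without HDAC8-labelled replicate 3. Of 104 fold changes of single serpins under an alternative, 87 kept their direction and their side of the threshold, 15 kept their direction only and 2 changed sign. The cause was not tested. Same-numbered libraries did not deviate together (r = -0.060, -0.12 and -0.053 over 14149 genes), which does not tell whether they were prepared together. The replicate block moved the adjusted p of SERPINI1 to 0.0845. Across settings, the median change of all genes stayed between -0.018 and 0.017 (log2). The values of SERPINB9, SERPING1 and SERPINI1 rest on low counts, at 45 or fewer in any library. With library totals in place of TMM, 4 rather than 6 partner genes were higher past both thresholds, since HTRA1 and COL4A1 came to lie just under the fold threshold.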
